A study of Mus musculus with 32 samples.

Results

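The small leucine-rich proteoglycans are secreted matrix proteins that bind collagen fibrils. The 10 genes described here are Dcn (decorin), Bgn (biglycan), Aspn (asporin), Lum (lumican), Fmod (fibromodulin), Kera (keratocan), Prelp (PRELP), Omd (osteoadherin), Ogn (osteoglycin, also called mimecan) and Podn (podocan), out of 24421 genes in the deposited count table. The family was chosen by measured values, namely the genotype differences of Ogn and Aspn in the 2 muscles, so the genotype values in muscle are given as a description without a test. The C57BL/6 EOM and TA libraries entered that choice too, so the EOM and TA levels within C57BL/6 are not independent of it, and the muscle contrasts of the 10 genes are given without p-values. The libraries with brain transcripts were not used in the choice. It grouped albino libraries by their transcripts, so 4 with muscle transcripts but a CN3 or CN6 label, described below, entered it as EOM or TA. Another 7 genes of the same family were followed beside them. The mice were albino B6(CG)Tyr(c-2J)/J animals, which carry the c-2J change in the tyrosinase gene, and pigmented C57BL/6 animals. The RNA came from the muscles that turn the eye (extraocular muscle, EOM), from a muscle of the lower leg (tibialis anterior, TA), and from brainstem samples named for the oculomotor (CN3) and abducens (CN6) motor neurons, with 4 libraries for each of the 8 groups. No treatment, age or sex is given for either genotype, and nothing in the labels says that the libraries of a group came from separate animals, so a p-value here measures the spread between these samples.

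Small leucine-rich proteoglycans share a core of leucine-rich repeats that lies along the collagen fibril and limits how fibrils grow and fuse. Decorin and biglycan carry chondroitin or dermatan sulfate chains and can also bind TGF-beta, whereas lumican, fibromodulin, keratocan and osteoadherin can carry keratan sulfate. In skeletal muscle and tendon they are made mostly by fibroblasts of the connective tissue sheaths and by tendon cells, and in brain their best known source is the fibroblasts of the meninges and vessel walls.

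Of the 16 albino libraries 8 did not carry the transcripts of the tissue on their label. Ckm, the muscle creatine kinase, stood at 4279 to 14900 CPM (a gene's counts scaled to the same total in every library) in 16 libraries and at 0 to 1.615 CPM in the other 16, and Snap25, a synaptic protein, divided the libraries the same way. The 8 libraries that went against their label were 4 with brain transcripts (numbers 1 and 2 of albino EOM and of albino TA) and 4 with muscle transcripts (numbers 3 and 4 of albino CN3 and of albino CN6). None of them was moved to another group. The genotype values use the other 24 libraries, 2 albino and 4 C57BL/6 in each tissue, and values of chosen genes in the 8 others are given one by one. Library totals ran from 18996461 to 34550801 counts in the albino libraries and from 18544334 to 44254021 counts in the C57BL/6 libraries. Tyr, the gene altered in the albino strain, did not exceed 0.642 CPM anywhere. In bulk tissue, fewer cells of a type and less RNA per cell cannot be told apart.

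EOM held far more of these transcripts than TA. In C57BL/6 mice all 10 genes were higher in EOM, by 1.26 (Kera) to 3.88 (Omd) on the log2 scale, and the 10 transcripts together made up 4222 ± 131 CPM in EOM and 438.9 ± 54.8 CPM in TA (SD, n = 4 each). Dcn, the most abundant of the family, read 2544, 2469, 2625 and 2573 CPM in C57BL/6 EOM and 211, 274, 243 and 263 CPM in C57BL/6 TA. Bgn, its closest relative, read 411, 338, 348 and 293 CPM in EOM and 43.7, 41.6, 27.1 and 39.7 CPM in TA. Neither gene overlapped between the muscles. Aspn, which competes with decorin for a site on collagen, read 100.4, 97.3, 119 and 96.4 CPM in EOM and 17.3, 17.8, 18.3 and 17.6 CPM in TA, the narrowest spread of the 10 genes in C57BL/6 TA relative to the mean.

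Lum, Omd, Fmod and Kera, whose proteins can carry keratan sulfate, and Prelp differed by unequal amounts. Lum, which limits fibril thickness in cornea and skin, read 375, 365, 427 and 380 CPM in C57BL/6 EOM and 18.6, 27.2, 18.1 and 19.5 CPM in C57BL/6 TA. Omd, best known from the mineralised matrix of bone and teeth, read 23.9, 23.2, 33.0 and 22.6 CPM in EOM and 0.640, 1.00, 1.21 and 1.32 CPM in TA. Both genes stood at least an order of magnitude apart between the muscles in every pair of libraries. Fmod, a shaper of tendon collagen, read 342, 328, 250 and 237 CPM in EOM and 35.8, 70.3, 43.3 and 56.0 CPM in TA. Kera, a main proteoglycan of the cornea, read 26.1, 26.3, 24.3 and 21.5 CPM in EOM and 4.08, 8.40, 4.03 and 8.15 CPM in TA. In Fmod and Kera C57BL/6 TA 2 and 4 lay above C57BL/6 TA 1 and 3, and the EOM libraries lay above all of them. Prelp, which links collagen to basement membranes, read 134, 125, 103 and 112 CPM in EOM and 21.6, 25.7, 22.0 and 27.0 CPM in TA.

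Ogn, which is known to affect collagen fibril width, read 306, 311, 370 and 307 CPM in C57BL/6 EOM and 24.3, 29.5, 24.0 and 28.3 CPM in C57BL/6 TA. Podn, a collagen-binding member first described in kidney, read 51.6, 49.0, 53.4 and 45.4 CPM in EOM and 5.72, 6.25, 4.29 and 6.04 CPM in TA. The EOM and TA libraries did not overlap in either gene, and C57BL/6 EOM 3 was the highest EOM library in Dcn, Ogn, Aspn, Omd, Lum and Podn but not in Bgn, Fmod, Kera or Prelp.

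**Figure D1:**
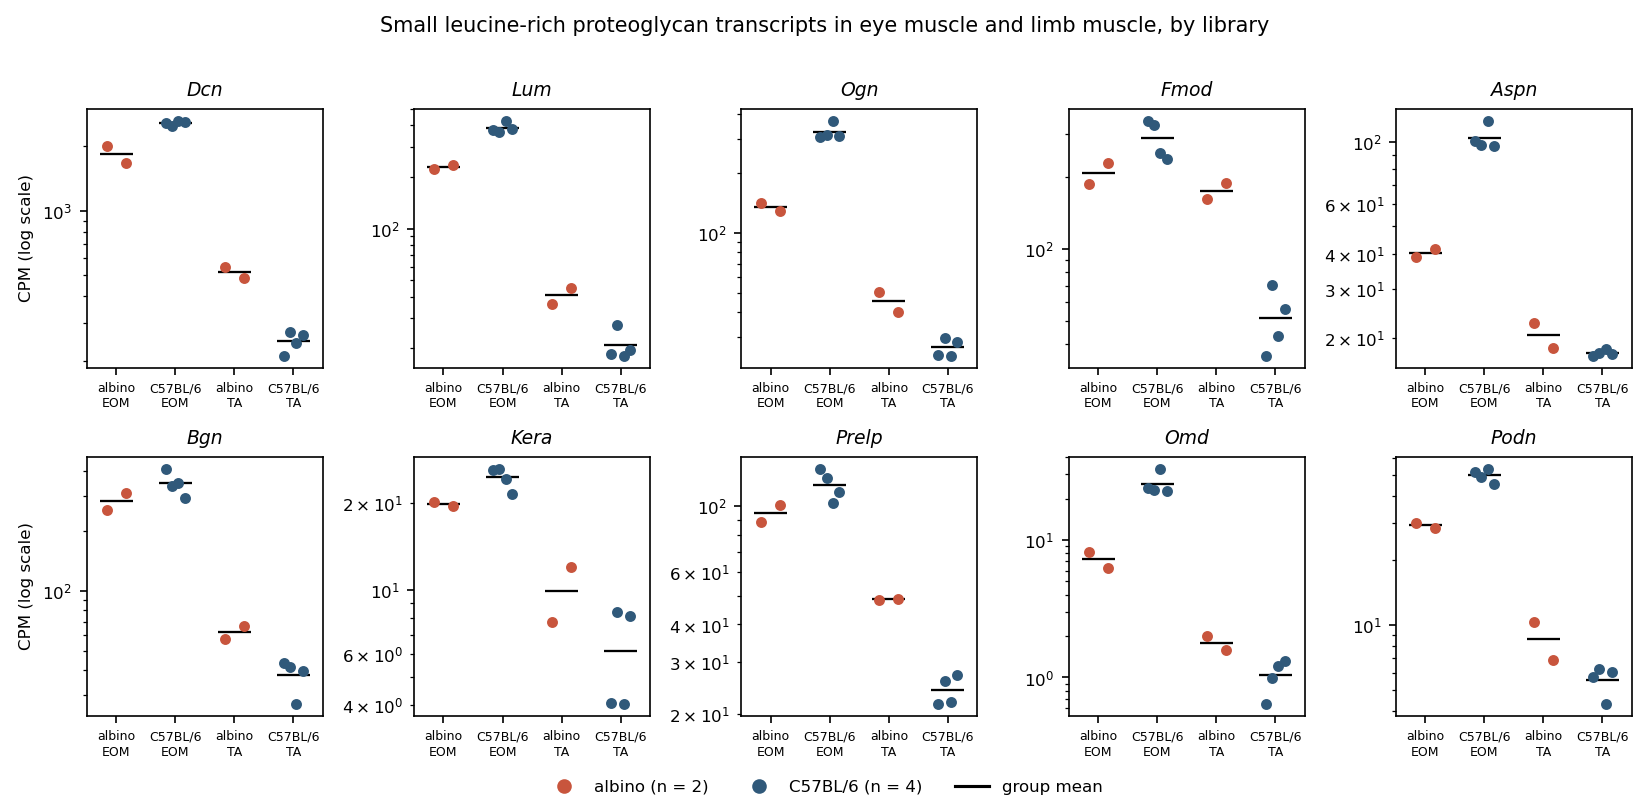
CPM of the 10 small leucine-rich proteoglycan genes in each muscle library (log axis, 1 panel per gene). Points are libraries of albino and C57BL/6 EOM and TA whose markers match their label (n = 2 and 4), and bars are group means. The EOM libraries of C57BL/6 lie highest and the TA libraries of C57BL/6 lowest in most panels, with the albino libraries between them. Bgn overlaps between the genotypes in EOM and Kera in TA.

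With edgeR's quasi-likelihood test and Benjamini-Hochberg adjustment all 10 genes were called higher in EOM than in TA, where 41.3% of the 16670 tested genes were called higher and 32.8% lower. The log2 fold change was 2.63 ± 0.11 for Dcn (SE), 3.48 ± 0.13 for Lum and 2.88 ± 0.12 for Ogn. It was 3.88 ± 0.31 for Omd, 2.46 ± 0.16 for Bgn, 1.81 ± 0.12 for Aspn and 1.26 ± 0.24 for Kera. The median over the 10 genes was 2.44, beside 0.16 over all tested genes. These values depend on how libraries of such different tissues are scaled. Scaled by library totals alone, the median of all genes moved to 0.89, with 11814 genes higher and 1569 lower in place of 6886 and 5470, and Dcn stood at 3.37. With offsets for GC content and exon length the median moved to −0.37, with 4543 genes higher and 8066 lower. Under those offsets Aspn stood at 0.99, Kera at 0.75 and Prelp at 1.03. All 10 genes were called higher in EOM under each alternative tried.

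Of the other family members 5 of 6 tested were called higher in EOM, at a median of 1.96 beside 2.44 for the 10 genes. Epyc (epiphycan), known from growth plate cartilage, read 97.4, 86.7, 98.8 and 82.4 CPM in C57BL/6 EOM and at most 0.153 CPM in C57BL/6 TA, a log2 fold change of 9.41 ± 0.35 (edgeR, adjusted p = 2.79e-13). Ecm2, a leucine-rich matrix gene that neighbours Aspn, averaged 106 CPM in EOM and 23.2 CPM in TA and was called at 1.47 ± 0.13 (adjusted p = 2.12e-08). Tsku (tsukushi), a secreted modulator of several growth factors, was called at 2.45 ± 0.35 (adjusted p = 5.48e-06), and Chad (chondroadherin), a cartilage protein that binds collagen and integrins, at 1.38 ± 0.24 (adjusted p = 4.66e-05). Optc (opticin), a protein of the eye's vitreous, was called at 3.14 ± 0.45 from at most 2.87 CPM. Nyx (nyctalopin), of the retina, was not called, and Podnl1 was too low to test.

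**Figure D2:**
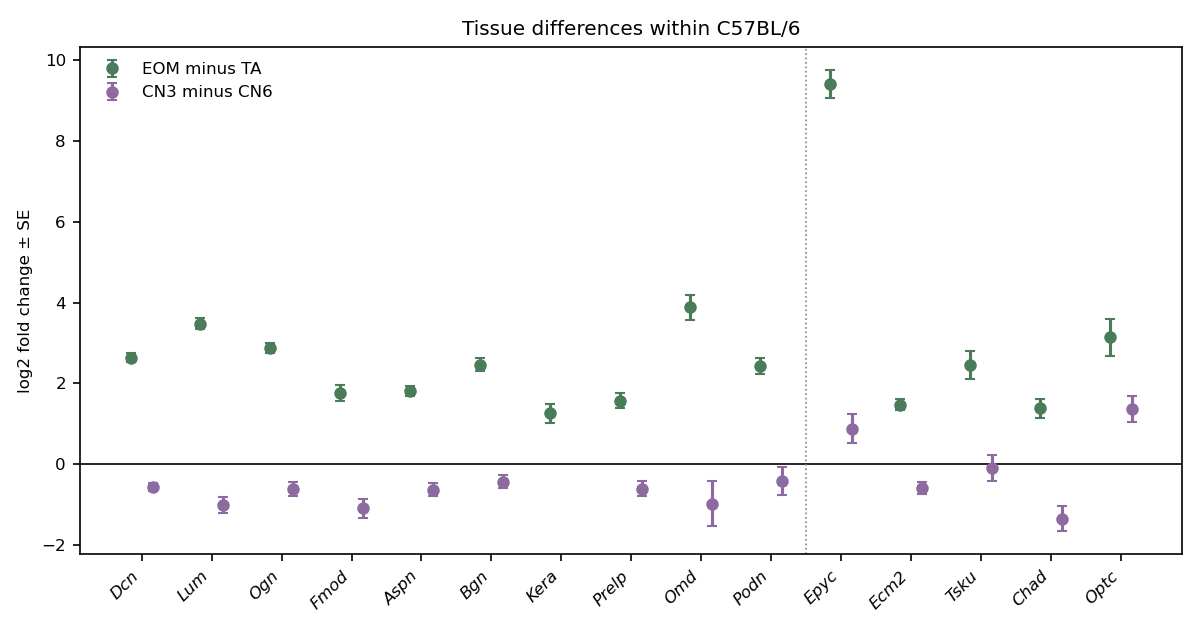
Log2 fold change with its SE for the 10 genes and, right of the dotted line, 5 other family members within C57BL/6, for EOM minus TA and for CN3 minus CN6 (n = 4 libraries per tissue). All EOM minus TA values lie above 0, and the CN3 minus CN6 values of the 10 genes lie below 0, where Kera has no value because it had 0 counts.

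Measured per kilobase of exon, which allows genes to be compared with each other, Dcn led both muscles, at 437.3 ± 11.1 CPM per kb in C57BL/6 EOM and 42.4 ± 4.72 in C57BL/6 TA (SD, n = 4). In EOM the order continued with Lum at 158 ± 11.3, Ogn at 126 ± 12.0, Fmod at 87.5 ± 16.2, Bgn at 57 ± 8 and Aspn at 43.9 ± 4.53 CPM per kb. The libraries of Bgn and Aspn overlapped, whereas each earlier pair in that order was separate. In TA the second place went to Fmod at 15.5 ± 4.59 CPM per kb, and Ogn, Lum, Aspn, Prelp and Bgn followed between 10.3 and 6.23 with each neighbour overlapping the next. Omd was last in TA, at 0.464 ± 0.134 CPM per kb, but overlapped both Podn and Kera in EOM. Of the summed level per kb, Lum made up 16.2% in EOM and 8.35% in TA, and Fmod 8.96% in EOM and 15.0% in TA.

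The collagens that these proteins bind, and the enzymes that process them, moved with the family between the muscles. All 12 collagen genes tested were called higher in C57BL/6 EOM than in TA, at a median log2 fold change of 2.24. Col14a1, a fibril-associated collagen of tendon and fascia, was higher by 3.61 ± 0.12 (edgeR, adjusted p = 1.05e-13), Col5a2, which helps to start fibrils, by 2.27 ± 0.13 and Col3a1, of elastic connective tissue, by 2.79 ± 0.17. Of 18 collagen processing and crosslinking enzymes 15 were higher and 0 lower, among them Bmp1, which cleaves procollagen and the propeptides of several small proteoglycans, at 2.09 ± 0.10. Pcolce2, its enhancer, stood at 2.55 ± 0.17 and the lysyl hydroxylase Plod2 at 2.44 ± 0.13.

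Of 15 tested enzymes that build chondroitin and dermatan sulfate, 13 were higher and 1 lower in EOM. Dse and Dsel, the epimerases that turn chondroitin into dermatan sulfate, were higher by 2.37 ± 0.14 and 1.83 ± 0.13, and Ust, a sulfotransferase, by 2.34 ± 0.15. The keratan sulfate list had 4 higher of 5, with the sulfotransferases Chst2 at 2.14 ± 0.15 and Chst1 at 2.13 ± 0.17. The enzymes that build the linker by which any such chain is attached did not move in 1 direction. Of 6, Xylt2 was among the 2 called higher, at 0.87 ± 0.16, while Fam20b and B3gat3 were called lower, at −0.59 ± 0.07 and −0.72 ± 0.08.

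Among 10 genes of TGF-beta and its binding proteins 6 were higher and 3 lower in EOM. Ltbp1 and Ltbp2, which hold latent TGF-beta or bind fibrillin in the matrix, were higher by 1.86 ± 0.10 and 5.04 ± 0.36, and the co-receptor Tgfbr3 by 1.58 ± 0.09. Of 8 tested proteases that can cleave proteoglycans 7 were higher, among them Mmp2 at 2.65 ± 0.14, Adamts5 at 1.79 ± 0.11 and Mmp3 at 5.90 ± 0.31. The large aggregating proteoglycan Vcan (versican) was higher by 2.64 ± 0.12.

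Markers of the cells that make such matrix, and of others that a dissection could hold, were measured beside these groups. Of 10 fibroblast markers 9 were called higher in EOM, and their summed level ran from 3014 to 3964 CPM in C57BL/6 EOM, against 306 to 475 CPM in C57BL/6 TA, including Pdgfra at 2.99 ± 0.11, Dpt at 2.82 ± 0.10 and Thy1 at 2.35 ± 0.09 on the log2 scale. Of 7 tendon markers 4 were higher and 1 lower in EOM, among them Mkx at 3.52 ± 0.24, Col12a1 at 2.32 ± 0.18 and Tnmd at 1.69 ± 0.23, with sums of 166 to 213 CPM and 84.4 to 102 CPM. All 7 markers of corneal and conjunctival epithelium were higher, with sums of 111 to 767 CPM in EOM and 0.460 to 1.04 CPM in TA. Of 9 cartilage markers 3 were called higher and 1 lower of the 7 tested, Matn1 was at 0 in every muscle library whose markers match its label, and the sums were 37.6 to 46.8 CPM and 9.84 to 13.0 CPM. All 8 macrophage markers were higher too, with sums of 592 to 746 CPM and 48.4 to 58.5 CPM. All 10 fast fibre markers were lower in EOM, with sums of 66830 to 74770 CPM in EOM and 157000 to 166400 CPM in TA. All 8 neuronal markers were higher, with sums of 14.5 to 89.6 CPM in EOM and at most 0.880 CPM in TA, and of 6 glial markers 4 were higher and 1 lower. Their part in the result was not tested.

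Several family members sit side by side in the genome. Ecm2, Aspn, Omd and Ogn lie on chromosome 13 (mm10, 49504810 to 49624501, a span of 120 kb), all on the forward strand. Of the protein-coding genes in the count table, 0 others lie wholly inside that span. Genes that overlap or enclose a span without lying wholly inside it were not counted. Dcn, Lum, Kera and Epyc lie on chromosome 10 (97479609 to 97682454, 203 kb), and Optc, Prelp and Fmod on chromosome 1 (133897199 to 134048277, 151 kb), again with 0 others wholly inside. Bgn lies on the X chromosome (73483602 to 73495933) and Podn on chromosome 4 (108014791 to 108096445). Neighbours did not share 1 size of tissue difference. On chromosome 13 the EOM minus TA value ran from 1.47 (Ecm2) and 1.81 (Aspn) to 2.88 (Ogn) and 3.88 (Omd), and on chromosome 10 from 1.26 (Kera) to 9.41 (Epyc).

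The 250 bases before the RefSeq start (GRCm38.p6) of the 4 chromosome 13 neighbours are shown because Aspn, Omd and Ogn had the largest genotype differences in EOM of the 10 genes. They lie at chr13:49504560-49504809 (Ecm2), chr13:49544193-49544442 (Aspn), chr13:49582212-49582461 (Omd) and chr13:49607765-49608014 (Ogn), and are given 5′ to 3′ on the forward strand. Capitals mark the E-box CANNTG (N is any base), which reads the same on both strands, and the TATA motif TATAAA on either strand.
Ecm2: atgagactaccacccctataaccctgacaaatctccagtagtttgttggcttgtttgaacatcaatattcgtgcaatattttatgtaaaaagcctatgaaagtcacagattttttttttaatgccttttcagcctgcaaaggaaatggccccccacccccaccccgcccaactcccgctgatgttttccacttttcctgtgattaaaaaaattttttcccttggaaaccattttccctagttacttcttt
Aspn: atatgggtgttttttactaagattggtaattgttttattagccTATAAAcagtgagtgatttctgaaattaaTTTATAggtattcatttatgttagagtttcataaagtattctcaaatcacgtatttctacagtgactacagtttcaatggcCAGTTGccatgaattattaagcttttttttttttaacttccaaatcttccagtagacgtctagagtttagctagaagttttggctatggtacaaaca
Omd: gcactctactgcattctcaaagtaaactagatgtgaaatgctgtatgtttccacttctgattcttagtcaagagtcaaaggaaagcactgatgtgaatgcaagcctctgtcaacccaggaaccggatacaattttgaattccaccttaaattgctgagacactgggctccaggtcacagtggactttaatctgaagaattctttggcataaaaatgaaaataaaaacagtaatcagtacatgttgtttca
Ogn: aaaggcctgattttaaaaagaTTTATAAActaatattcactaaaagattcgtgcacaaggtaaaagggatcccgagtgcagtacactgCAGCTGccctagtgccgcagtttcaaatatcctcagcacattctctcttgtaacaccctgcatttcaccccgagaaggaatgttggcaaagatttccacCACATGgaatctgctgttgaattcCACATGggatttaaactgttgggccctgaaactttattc
Aspn had 1 E-box and Ogn 3, while Omd and Ecm2 had 0. Aspn and Ogn each had 2 TATA motifs, of which the 2 in Ogn overlap on opposite strands, and Omd and Ecm2 had 0. In windows of the same 250 bases before 32851 starts, 66.2% held the E-box and 12.4% held the TATA motif. G and C made up 30.0% of the Aspn window, 38.4% of the Omd window, 42.0% of the Ogn window and 40.0% of the Ecm2 window. The motifs are thus not shared by all 4 neighbours.

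In the brainstem samples the family was scarce and differently composed. The 10 transcripts summed to 53.8 ± 3.24 CPM in C57BL/6 CN3 and 80.3 ± 16.5 CPM in C57BL/6 CN6 (SD, n = 4 each). Compared with the brainstem, the mean of the 2 muscles in C57BL/6 was called higher for all 10 genes, where 41.4% of tested genes were called higher and 47.4% lower. Scaled by library totals alone, those shares came from 4527 genes higher and 10582 lower, in place of 6901 and 7903, and with GC and length offsets from 8199 and 6130, and the median of all genes moved to −0.81 under the first and 0.30 under the second. Lum differed by 6.31 ± 0.12, Dcn by 6.04 ± 0.09, Ogn by 5.71 ± 0.11 and Podn by 5.68 ± 0.19 on the log2 scale. Bgn differed by 3.54 ± 0.12 and Prelp by 2.31 ± 0.14, the smallest value of the 10. Kera had 0 counts in all 16 libraries with brain transcripts. Over the 8 C57BL/6 brainstem libraries, the limit that 0 counts allows (3 counts of the summed total) was 0.0102 CPM, so Kera was at least 2400-fold higher in C57BL/6 EOM and at least 603-fold higher in C57BL/6 TA, a limit that covers counting error only.

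The enzymes and large proteoglycans did not follow the family from muscle to brainstem. Of 15 chondroitin and dermatan sulfate enzymes only 4 were higher in muscle and 11 were lower. Of 5 keratan sulfate enzymes 4 were lower, at a median log2 fold change of −4.00. Of 8 large aggregating proteoglycans and link proteins, which build the pericellular nets of neurons, 0 were higher and 7 lower. All 10 TGF-beta genes and 11 of 12 collagens were higher in muscle.

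Per kilobase, Prelp stood first in C57BL/6 CN3 at 3.94 ± 0.824 CPM per kb, ahead of Dcn at 2.78 ± 0.212 without overlap. In C57BL/6 CN6 Prelp stood at 5.87 ± 2.19 and Dcn at 4.03 ± 0.814 CPM per kb, and their libraries overlapped. Prelp made up 32.1% of the summed level per kb in CN3 and 30.2% in CN6, against 3.36% in EOM and 6.57% in TA. Bgn made up 18.2% and 16.1% in CN3 and CN6, against 5.83% in EOM. Dcn made up 22.4% and 21.3%, against 44.8% in EOM and 41.8% in TA.

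**Figure D3:**
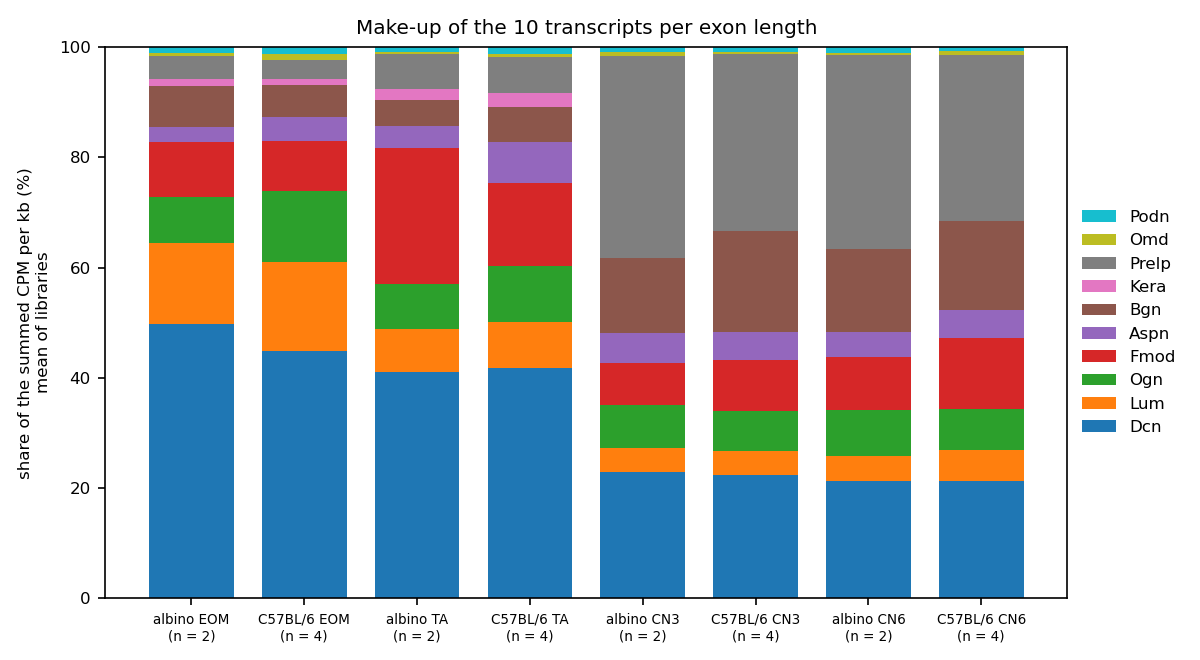
Share of each of the 10 genes in their summed CPM per kb of exon, as the mean over libraries of each group (n = 2 albino, 4 C57BL/6). Dcn makes up 41.1% to 49.7% in the muscle groups and 21.2% to 23.0% in the brainstem groups, where Prelp makes up 30.2% to 36.8%.

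Within C57BL/6 brainstem, 6 of the 10 genes were called lower in CN3 than in CN6 and 0 higher, where 12% of tested genes were called lower and 9.49% higher. Dcn read 14.4, 17.0, 17.0 and 16.5 CPM in C57BL/6 CN3 and 22.3, 30.5, 20.2 and 21.1 CPM in C57BL/6 CN6, a log2 fold change of −0.57 ± 0.11 (edgeR, adjusted p = 0.00140). Lum read 1.11 to 1.59 CPM in CN3 and 2.03 to 3.26 CPM in CN6 (−1.03 ± 0.20, adjusted p = 0.00132). Fmod read 2.90 to 4.38 CPM in CN3 and 6.01 to 11.1 CPM in CN6 (−1.10 ± 0.23, adjusted p = 0.00305). In these 3 genes the CN3 and CN6 libraries did not overlap, nor in Ogn, at 1.54 to 2.94 CPM in CN3 and 3.26 to 3.87 CPM in CN6. The share of all tested genes without such overlap was not counted. Ogn was called at −0.62 ± 0.16 (adjusted p = 0.0123), Aspn at −0.63 ± 0.16 (adjusted p = 0.0109) and Prelp at −0.61 ± 0.19 (adjusted p = 0.0294).

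Of the remaining genes Bgn differed by −0.44 ± 0.16 (adjusted p = 0.0612). It was called lower by DESeq2 (adjusted p = 0.0254), with GC and length offsets (0.0474), with only these 2 tissues in the fit (0.0424), without C57BL/6 CN3 2 (0.0310) and without C57BL/6 TA 3 (0.0329). Omd differed by −0.98 ± 0.55 and Podn by −0.43 ± 0.35 on at most 0.926 CPM, and Kera could not be compared. C57BL/6 CN6 2 was the highest CN6 library in Dcn, Fmod, Bgn and Prelp. Without it Prelp differed by −0.34 (adjusted p = 0.125), and its call was also lost without C57BL/6 CN3 2 or CN3 4. The calls of Aspn, Ogn and Prelp were lost when only these 2 tissues entered the fit (adjusted p = 0.0671, 0.0548 and 0.0628), and that of Aspn also with GC and length offsets and with limma voom. Of 10 meningeal and perivascular fibroblast markers 2 were lower in CN3, with sums of 39.7 to 69.0 CPM in CN3 and 52.6 to 96.2 CPM in CN6. Chat, the enzyme of cholinergic motor neurons, chosen here with its values known, read 0.212 to 0.717 CPM in C57BL/6 CN3 and 9.39 to 20.5 CPM in C57BL/6 CN6, so the motor neuron transcript that defines both samples was near 0 in CN3. The part of these markers in the result was not tested.

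**Figure D4:**
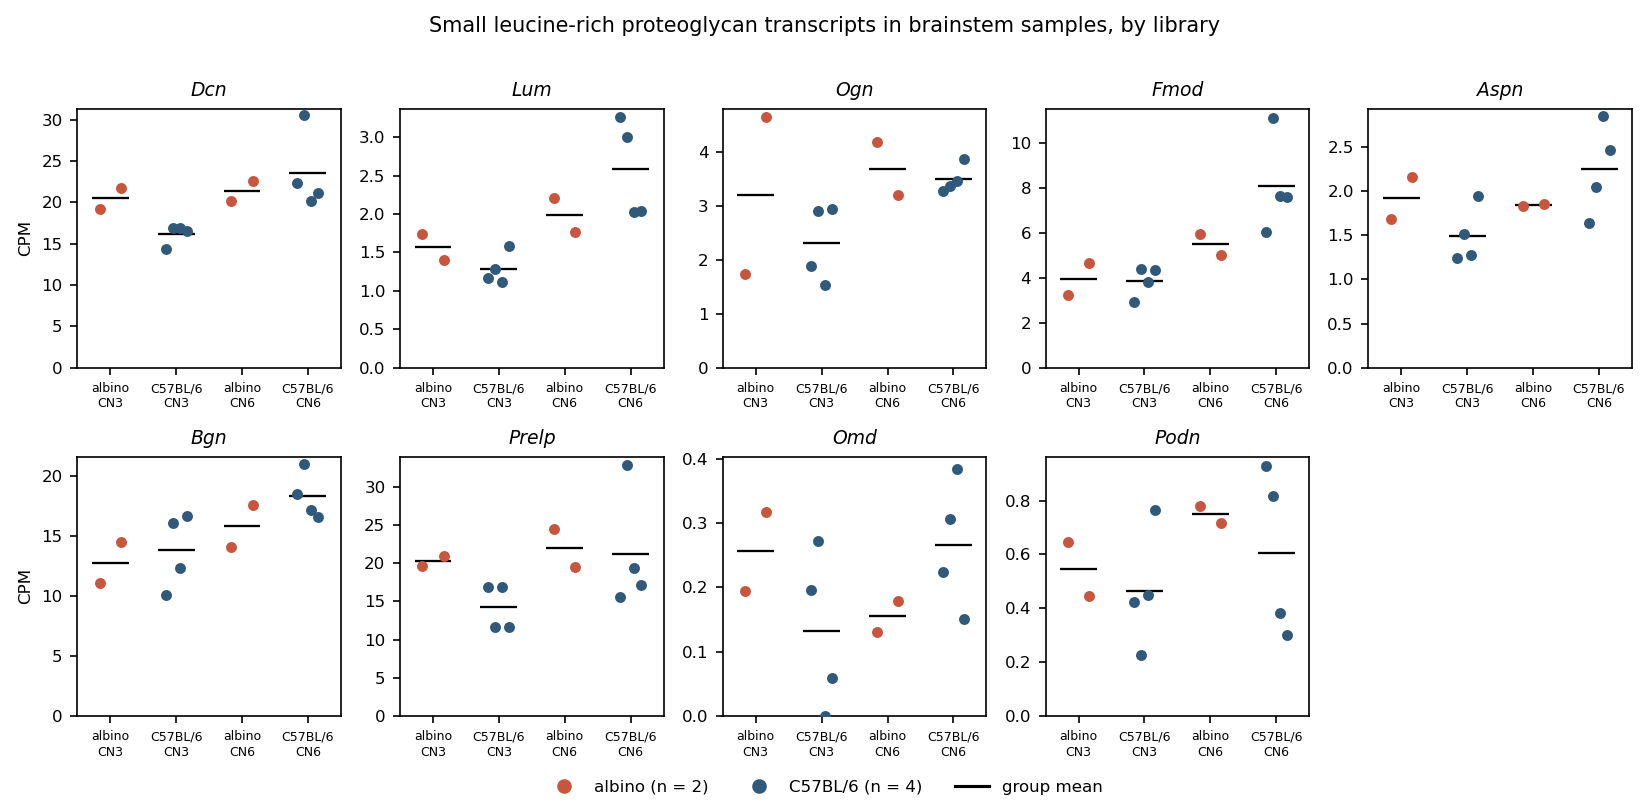
CPM of 9 of the genes in each brainstem library (linear axes from 0, 1 panel per gene, Kera left out at 0 counts). Points are albino and C57BL/6 CN3 and CN6 libraries whose markers match their label (n = 2 and 4), and bars are group means. Dcn and Prelp are the 2 genes whose albino CN3 libraries lie above all 4 C57BL/6 CN3 libraries.

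Genotype made no called difference to the family in the brainstem samples. In CN3, 0 of 8 tested genes were called by edgeR (Kera and Omd were too low to test), where 13 of 16171 genes (0.0804%) were called, 1344 had an unadjusted p under 0.05 and DESeq2 called 101. Dcn read 19.2 and 21.8 CPM in albino CN3 and 14.4 to 17.0 CPM in C57BL/6 CN3 (0.35 ± 0.11, adjusted p = 0.573). Prelp read 19.6 and 21.0 CPM in albino CN3 and 11.6 to 16.8 CPM in C57BL/6 CN3 (0.53 ± 0.18, adjusted p = 0.573). In these 2 genes both albino libraries lay above the C57BL/6 range, as in 8.71% of all tested genes. In CN6, 0 of 9 tested genes were called, where 4 of 16268 genes (0.0246%) were called, 1523 had an unadjusted p under 0.05 and DESeq2 called 106. Without albino CN6 2 the count over all genes was 950 in place of 4. Fmod read 5.93 and 5.02 CPM in albino CN6 and 6.01 to 11.1 CPM in C57BL/6 CN6 (−0.57 ± 0.22, adjusted p = 0.487), below the whole C57BL/6 range, as in 8.14% of tested genes. Chat read 8.52 and 16.7 CPM in albino CN3, so the albino and C57BL/6 CN3 samples also differed in motor neuron transcripts, and the part of that in these values was not tested.

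In EOM all 10 genes had a lower mean in albino than in C57BL/6 mice, and the chromosome 13 neighbours were the furthest apart. Ogn read 143 and 129 CPM in albino EOM and 306, 311, 370 and 307 CPM in C57BL/6 EOM, a log2 fold change of −1.24 ± 0.09. Aspn read 39.0 and 41.7 CPM in albino EOM and 100.4, 97.3, 119 and 96.4 CPM in C57BL/6 EOM, a log2 fold change of −1.34 ± 0.10. Omd read 8.22 and 6.21 CPM in albino EOM and 23.9, 23.2, 33.0 and 22.6 CPM in C57BL/6 EOM, a log2 fold change of −1.81 ± 0.18. In each of the 3 genes both albino libraries lay below the lowest C57BL/6 library by more than the C57BL/6 libraries spanned. Ecm2, their neighbour, read 60.8 and 60.5 CPM in albino EOM and 105 to 108 CPM in C57BL/6 EOM (−0.79 ± 0.07).

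Dcn read 1995 and 1671 CPM in albino EOM and 2469 to 2625 CPM in C57BL/6 EOM, a log2 fold change of −0.47 ± 0.08. Lum read 222 and 234 CPM in albino EOM and 365 to 427 CPM in C57BL/6 EOM (−0.74 ± 0.08), and Podn read 29.8 and 28.4 CPM in albino EOM and 45.4 to 53.4 CPM in C57BL/6 EOM (−0.76 ± 0.09). In these 3 genes no albino library reached the C57BL/6 range. Fmod read 186 and 227 CPM in albino EOM and 237 to 342 CPM in C57BL/6 EOM (−0.47 ± 0.18), Kera 20.2 and 19.6 CPM in albino EOM and 21.5 to 26.3 CPM in C57BL/6 EOM (−0.29 ± 0.11), and Prelp 88.9 and 101 CPM in albino EOM and 103 to 134 CPM in C57BL/6 EOM (−0.30 ± 0.13). Bgn alone overlapped, with 255 and 309 CPM in albino EOM and 293 to 411 CPM in C57BL/6 EOM (−0.28 ± 0.14).

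Counted as a description, 6 of the 10 genes were called lower in albino EOM (Dcn, Lum, Ogn, Aspn, Omd and Podn), 0 higher and 4 not called, where 17.6% of 15397 tested genes were called lower and 14.5% higher. In 9 of the 10 genes both albino libraries lay below the C57BL/6 range, as in 26.9% of all tested genes. The median log2 fold change of the 10 genes was −0.61, beside 0.01 for all genes. Dcn changed sign with offsets for GC content and exon length, to 0.14 ± 0.12, and was then not called. Under those offsets Ogn stood at −0.76, Aspn at −0.76 and Omd at −1.35, all 3 still called. Dcn, Ogn, Aspn and Omd are among the members of lowest GC content, with 37.4%, 36.3%, 34.3% and 36.1% in their transcripts. Of the 5 other family members tested 3 were called lower, namely Ecm2, Epyc (−0.71 ± 0.09) and Tsku (−1.05 ± 0.22), and Optc and Chad were not called.

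In TA the same comparison ran the other way. Fmod had the largest difference, with 161 and 188 CPM in albino TA and 35.8, 70.3, 43.3 and 56.0 CPM in C57BL/6 TA, a log2 fold change of 1.74 ± 0.18. Dcn read 549 and 485 CPM in albino TA and 211, 274, 243 and 263 CPM in C57BL/6 TA (1.03 ± 0.09). Prelp read 48.3 and 48.9 CPM in albino TA and 21.6 to 27.0 CPM in C57BL/6 TA (0.98 ± 0.09). In these 3 genes both albino libraries lay above all 4 C57BL/6 libraries by more than the C57BL/6 libraries spanned.

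Lum read 36.4 and 45.3 CPM in albino TA and 18.1 to 27.2 CPM in C57BL/6 TA (0.94 ± 0.14). Ogn read 50.5 and 40.0 CPM in albino TA and 24.3, 29.5, 24.0 and 28.3 CPM in C57BL/6 TA (0.74 ± 0.11). Bgn read 57.6 and 66.8 CPM in albino TA and 27.1 to 43.7 CPM in C57BL/6 TA (0.68 ± 0.13). None of these 3 overlapped. Podn read 10.4 and 6.91 CPM in albino TA and 4.29 to 6.25 CPM in C57BL/6 TA (0.60 ± 0.19), and without albino TA 3 its difference was 0.27. Its call was also lost without C57BL/6 TA 1 (0.61), with the replicate number as a block (0.68) and with GC and length offsets (0.39).

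Aspn stood apart from Ogn in TA. It read 22.7 and 18.4 CPM in albino TA and 17.3, 17.8, 18.3 and 17.6 CPM in C57BL/6 TA, a log2 fold change of 0.19 ± 0.11 that was not called. Albino TA 4 lay just above the highest C57BL/6 library and albino TA 3 further above it. Without albino TA 4 the difference was 0.35 and called, and with GC and length offsets it was 0.55 and called. In these libraries the Aspn difference in TA, part of what singled it out with Ogn, was thus small and passed the threshold only under these settings. The choice itself also used the libraries labelled albino CN6 3 and 4, at 18.6 and 20.3 CPM of Aspn, and that grouping was not fitted. Omd, at 2.01 and 1.58 CPM in albino TA and 0.640 to 1.32 CPM in C57BL/6 TA (0.75 ± 0.34), was not called either, nor was Kera, at 7.76 and 12.1 CPM in albino TA and 4.03 to 8.40 CPM in C57BL/6 TA (0.64 ± 0.28), whose groups overlapped.

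As a description, 7 of the 10 genes were called higher in albino TA (Dcn, Lum, Ogn, Fmod, Bgn, Prelp and Podn), 0 lower and 3 not called, where 14.7% of 13295 tested genes were called higher and 16.4% lower. With upper quartile factors 2442 genes were called higher and 1745 lower in place of 1950 and 2181, and with GC and length offsets 1215 and 2334. In 9 of the 10 genes both albino libraries lay above the C57BL/6 range, as in 27% of all tested genes. The median log2 fold change was 0.74 for the 10 genes and 0 for all genes. Among the other family members Chad read 13.8 and 14.0 CPM in albino TA and 2.56 to 5.10 CPM in C57BL/6 TA (1.87 ± 0.20, called), whereas Ecm2 read 24.1 and 21.1 CPM in albino TA and 21.0 to 25.5 CPM in C57BL/6 TA and did not differ beyond that spread (−0.06 ± 0.10). Epyc stayed at or below 0.445 CPM in both genotypes.

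**Figure D5:**
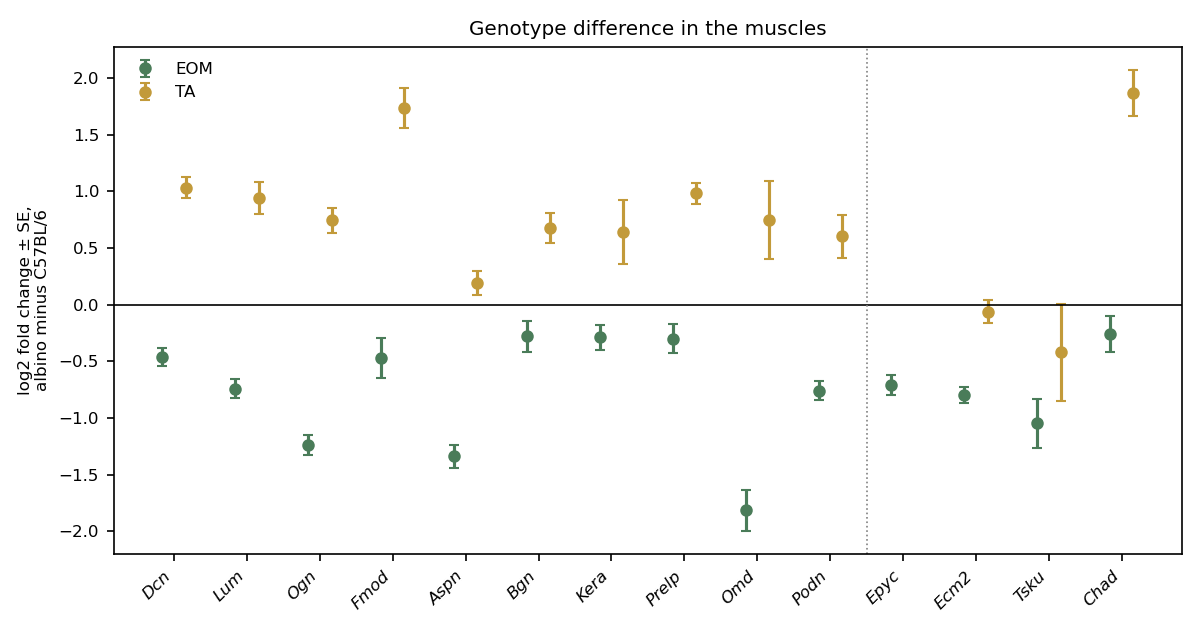
Log2 fold change with its SE, albino minus C57BL/6, in EOM and in TA (n = 2 albino and 4 C57BL/6 libraries each) for the 10 genes and, right of the dotted line, 4 other family members. The 10 EOM values lie between −1.81 and −0.28 and the 10 TA values between 0.19 and 1.74. Epyc was too low to test in TA.

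The genotype difference in EOM minus that in TA ran from −2.56 ± 0.34 (Omd) to −0.93 ± 0.37 (Kera) on the log2 scale. It was −2.21 ± 0.31 for Fmod, −1.98 ± 0.15 for Ogn, −1.69 ± 0.19 for Lum, −1.53 ± 0.14 for Aspn and −1.50 ± 0.15 for Dcn. Of the 10 genes 9 were called lower, with Kera not called, where 5.49% of 15670 tested genes were called lower and 2.23% higher, and nothing is read from that count since the same contrast chose the genes. The counts over all genes were 350 higher and 861 lower, against 662 and 536 with GC and length offsets and 637 and 876 with upper quartile factors. Bgn, at −0.96 ± 0.22, lost its call without albino EOM 3 or without albino TA 4. The albino and C57BL/6 values of Fmod show the size of this difference. Albino EOM and TA lay near each other, at 186 and 227 CPM in EOM and 161 and 188 CPM in TA, whereas C57BL/6 EOM and TA lay far apart, at 237 to 342 CPM in EOM and 35.8 to 70.3 CPM in TA.

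Between the genotypes the make-up of the family shifted within each muscle. Ogn made up 8.37% ± 0.3 of the summed level per kb in albino EOM and 12.9% ± 0.9 in C57BL/6 EOM, and Aspn 2.72% ± 0.22 and 4.49% ± 0.32 (SD, n = 2 albino and 4 C57BL/6). Dcn made up 49.7% ± 4.4 in albino EOM and 44.8% ± 1.5 in C57BL/6 EOM. In TA Fmod made up 24.6% ± 2.9 in albino and 15.0% ± 2.4 in C57BL/6 mice, and Aspn 4.06% ± 0.56 and 7.50% ± 1. The albino and C57BL/6 libraries did not overlap in the shares of Ogn and Aspn in EOM, or of Fmod and Aspn in TA. The sums of the 10 genes were 2877 ± 155 CPM in albino EOM and 4222 ± 131 CPM in C57BL/6 EOM, and 929.7 ± 22.8 CPM in albino TA and 438.9 ± 54.8 CPM in C57BL/6 TA.

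The libraries whose labels and markers disagree were not averaged. Those with muscle transcripts entered the choice of the family as EOM or TA, so their values are not independent of it. The libraries labelled albino CN3 3 and 4, which held muscle transcripts and Myh13, a myosin of eye muscle, at 3742 to 3765 CPM, read 176 and 172 CPM of Ogn, 52.6 and 46.3 CPM of Aspn, 10 and 10.7 CPM of Omd and 2053 and 2008 CPM of Dcn. Each of these values lies below the 4 C57BL/6 EOM libraries and above all TA libraries whose markers match their label. The libraries labelled albino CN6 3 and 4 held Myh13 at 19.5 and 94.0 CPM and read 50.1 and 57.2 CPM of Ogn, 18.6 and 20.3 CPM of Aspn, 55.5 and 94.8 CPM of Fmod and 409 and 507 CPM of Dcn. Their Fmod values lie below both albino TA libraries, and the first lies inside the C57BL/6 TA range. Bgn read 38.1 and 54.4 CPM there, Prelp 27.2 and 42.0 CPM and Kera 3.685 and 3.698 CPM. The first Bgn value lies inside the C57BL/6 TA range of 27.1 to 43.7 CPM. Both Kera values lie below the C57BL/6 TA range of 4.03 to 8.40 CPM, whereas the Ogn, Aspn and Dcn values lie above their C57BL/6 TA ranges. Of the libraries with brain transcripts the one labelled albino TA 1 stood apart, with 69.5 CPM of Prelp, 43.9 CPM of Dcn, 12.8 CPM of Lum and 11.6 CPM of Ogn, whereas the one labelled albino TA 2 read 22.4, 18.2, 2.52 and 3.20 CPM of these genes. The libraries labelled albino EOM 1 and 2 read 34.3 and 24.0 CPM of Prelp, 19.9 and 20.0 CPM of Dcn, 1.965 and 2.836 CPM of Lum and 2.25 and 4.46 CPM of Ogn. Compared as labelled, with these libraries in, 0 of the 10 genes were called in EOM, in TA or between them. In TA the fitted log2 fold change of 6 of them was below 0. Aspn stood at −0.72 there, Kera at −0.35, Podn at −0.29, Ogn at −0.12, Omd at −0.09 and Bgn at −0.05.

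The matrix genes around the family are given here by their counts. In albino TA 11 of 12 collagens were called higher and 0 lower, and 10 of 18 processing enzymes higher. Col14a1 was higher by 0.85 ± 0.14, Col3a1 by 1.54 ± 0.15, Pcolce2 by 0.93 ± 0.18 and Mmp2 by 1.14 ± 0.12, while Plod2 and Dsel were not called. Of 14 chondroitin and dermatan sulfate enzymes 4 were higher and 1 lower in albino TA, of 9 TGF-beta genes 2 higher and 1 lower at a median of 0.08, of 7 proteases 4 higher and 0 lower, and of 3 keratan sulfate enzymes 0 higher and 1 lower. In albino EOM 4 of the 12 collagens were called lower and 1 higher, with Col14a1 at −1.25 ± 0.14, and 6 of 15 chondroitin and dermatan sulfate enzymes lower and 2 higher, with Dsel at −1.30 ± 0.12 and Dse at −0.54 ± 0.11. Of 10 TGF-beta genes 5 were called lower in albino EOM and 0 higher, with Tgfbr3 at −0.79 ± 0.08 and Ltbp1 at −0.52 ± 0.08. Of 18 processing enzymes 4 were lower and 0 higher there at a median of −0.05, of 9 proteases 2 were higher and 2 lower, and of 4 keratan sulfate enzymes 0 were called.

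Markers of other cell types were measured beside these values. In TA all 10 fibroblast markers, all 7 tendon markers and all 8 macrophage markers were called higher in albino mice. The fibroblast list summed to 933 to 948 CPM in albino TA and 306 to 475 CPM in C57BL/6 TA, the tendon list to 198 to 202 CPM and 84.4 to 102 CPM, and the macrophage list to 185 to 236 CPM and 48.4 to 58.5 CPM. In EOM 1 of 10 fibroblast markers was called higher and 2 lower, with overlapping sums of 2956 to 3049 CPM in albino and 3014 to 3964 CPM in C57BL/6 mice. The fibroblast list was not uniform in EOM. Pdgfra was called lower, at 103 and 98.5 CPM in albino EOM and 138 to 154 CPM in C57BL/6 EOM (−0.48 ± 0.07), as was Col1a2 (−0.45 ± 0.14), while Fbn1 was called higher (0.69 ± 0.15). Dpt, at 288 and 228 CPM in albino EOM and 246 to 294 CPM in C57BL/6 EOM, and Pi16, at 544 and 494 CPM in albino EOM and 382 to 539 CPM in C57BL/6 EOM, overlapped. Of 7 tendon markers 3 were called lower in EOM, with sums of 124 to 147 CPM in albino and 166 to 213 CPM in C57BL/6 mice. Of 8 macrophage markers 4 were called higher in albino EOM and 0 lower, with sums of 780 to 965 CPM in albino and 592 to 746 CPM in C57BL/6 mice that did not overlap. Of 10 fast fibre markers 6 were called higher and 1 lower there. Epithelial markers summed to 209 to 685 CPM in albino EOM and 111 to 767 CPM in C57BL/6 EOM. The part of these cell types in the genotype values was not tested.

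Within groups, the genes did not vary as 1 block. Over the 12 muscle libraries whose markers match, deviations of log2 CPM from the group mean correlated at r = 0.82 between Fmod and Kera and between Fmod and Prelp, at 0.81 between Ogn and Podn and at 0.75 between Ogn and Dcn. Fmod and Ogn correlated at only 0.20 and Omd and Bgn at −0.52. Of the tendon markers, Comp correlated at 0.85 with Fmod and Thbs4 at 0.92 with Prelp, while Mkx correlated at 0.48 with Fmod, 0.74 with Dcn and 0.81 with Ogn. Scx correlated at 0.55 with Fmod and −0.35 with Ogn, and Tnmd at 0.43 with Fmod and 0.41 with Ogn. Of the fibroblast markers, Pdgfra correlated at 0.84 with Dcn, 0.78 with Ogn and 0.60 with Fmod. Dpt correlated with these genes at 0.40, 0.47 and 0.17, Col1a1 at 0.22, 0.31 and 0.79, and Col3a1 at −0.06, 0.05 and 0.59. The markers of a list thus did not share 1 pattern, and its other markers were not correlated. These correlations are a description of 12 libraries from 4 groups that share depth and dissection within a library.

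Across the same 12 libraries, the genes whose log2 CPM most resembled that of Ogn among 10236 genes were Asah1 (r = 0.993), Cald1 (0.991), Omd (0.990), Itih5 (0.989) and Podn (0.989). For Aspn they were Sntb2 (0.980), Mme (0.978), Pcdh7 (0.975), Zeb2 (0.975) and Pafah1b2 (0.974). All 10 were lower in albino EOM than in C57BL/6 EOM and lowest in TA. Itih5, for example, had means of 93.2 CPM in albino EOM, 181 CPM in C57BL/6 EOM, 33.6 CPM in albino TA and 23.8 CPM in C57BL/6 TA. Both the distance between EOM and TA and the genotype differences of Ogn and Aspn enter these r values. The order of the means is therefore no separate result, and the part of each in the likeness was not tested.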

How the data were processed

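RNA of 32 libraries (4 tissues, 2 genotypes, 4 libraries per group) was analysed from the authors' deposited table of raw read counts per gene symbol, which is not normalized. Per the submitters' processing notes the reads were handled with Trimmomatic 0.33, FastQC, HISAT2 2.1.0 (mm10), featureCounts and edgeR. The annotation and strand setting are not given in the sources used here, and where genes on opposite strands overlap their reads cannot be told apart. Gene names held 27 date-like entries with at most 0.309% of a library's counts.

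The test was the quasi-likelihood F test of edgeR 4.0.16 in R 4.3.3, with filterByExpr and TMM scaling. P-values were adjusted over all genes tested by the Benjamini-Hochberg method, with 0.05 as the threshold for a call. Tissue contrasts used the 16 C57BL/6 libraries in 1 fit. Genotype contrasts used libraries whose mean log2 CPM of fast fibre or neuronal markers matches the label, with all libraries as labelled as an alternative. CPM values use library totals, and correlations use log2 CPM with a prior count of 2. The SE was derived from the F statistic. Exon lengths, GC content and positions come from GENCODE on the same build, found for 23350 symbols (95.6%), and promoter sequences from RefSeq (GRCm38.p6). The fits were also run on simulated data, whose outcome is not given here, and no result above rests on that run. Alternatives were limma voom (limma 3.58.1), the DESeq2 1.42.0 Wald test and its size factors, upper quartile factors, other filters, other sample sets, a replicate block, offsets for GC content and exon length (natural splines, 5 degrees of freedom each) and leaving out each library. Scaling by library totals alone was added after seeing the data.

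The members, lists and tests were chosen with earlier results of these data known. Named beside the members are the other family genes, up to 3 genes per list with the smallest adjusted p among those called between EOM and TA, and the 5 genes most like Ogn and Aspn at a mean CPM of at least 5. Group means are given with the SD.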

Additional observations from a re-analysis of the deposited data

Results flagged for a closer look

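In 4 of 78 sets of 4 libraries tested, 1 library lay further from the other 3 than Dixon's 95% critical value allows. The sets were taken from the 8 groups as labelled, so each albino set mixed libraries with muscle and with brain transcripts. All 4 flagged sets were C57BL/6 sets. Chance gives about 1 in 20 among sets of like libraries, so the share over all 78 sets cannot be held against that rate. Ogn read 369.6 CPM in library 3 of C57BL/6 EOM, where the other 3 read 306 to 311 CPM. Omd read 33.02 CPM in the same library and 22.6 to 23.9 CPM in the others. Lum read 27.23 CPM in C57BL/6 TA 2 and 18.1 to 19.5 CPM in the other 3. Dcn read 14.37 CPM in C57BL/6 CN3 1 and 16.5 to 17.0 CPM in the other 3.

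For 9 genes the fitted genotype difference in EOM was unlike that in TA, past the threshold used for calls. The family was chosen by this contrast, with further albino libraries in, so the values are a description and not a test. The difference in EOM minus that in TA was −1.502 for Dcn, −0.964 for Bgn, −1.531 for Aspn, −1.687 for Lum, −2.210 for Fmod, −1.288 for Prelp, −2.562 for Omd, −1.984 for Ogn and −1.367 for Podn on the log2 scale. Each was lower in EOM.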

How the results depend on the processing

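Of 1524 values of single members under alternatives, 1452 kept their direction and their side of the threshold, 33 lost a call and 14 gained one. Another 25 changed sign, of which 21 were called under neither setting, among them Aspn (−0.72), Kera (−0.35) and Omd (−0.09) in TA with all libraries as labelled, and the rest in CN3 and CN6. The 4 sign changes of called values were Dcn in EOM with GC and length offsets (0.14) and, with all libraries as labelled, Bgn (−0.054), Ogn (−0.12) and Podn (−0.29) in TA. As labelled, members called fell to 0 in EOM, 0 in TA and 0 in the difference between them, and all genes called to 1 in EOM, 18 in TA, 33 in the difference, 0 in CN3 and 0 in CN6. DESeq2 called 101 genes in CN3, 106 in CN6 and 1924 in the difference, limma voom 9 in CN6, no filter 21 in CN3 and 21 in CN6, and all tissues in 1 fit 49 in CN3 and 12 in CN6. GC and length offsets left 1557 genes in EOM.

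With the replicate number as a block 5 genes were called in CN3, 0 in CN6 and 2641 in EOM, and of the members in TA Kera gained a call (0.70) and Podn lost it (0.68). Within C57BL/6, same-numbered libraries of EOM and TA or of CN3 and CN6 had deviations that correlated at r of −0.177 to 0.138. Between the genotypes, within 1 tissue, r ran from −0.192 to 0.248. Albino tissues were not compared with each other in this way. Such values cannot tell whether same-numbered libraries came from 1 animal.

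Leaving out 1 library at a time gave 2 to 12 genes in the CN3 genotype contrast (2 without albino CN3 2, 4 to 7 without C57BL/6 CN3 1, 3 or 4) and 4 to 950 in CN6 (950 without albino CN6 2, 9 without albino CN6 1). It gave 2738 to 4811 in EOM (fewest without albino EOM 3), 2484 to 3849 in TA (fewest without albino TA 3) and 591 to 1351 in the difference (591 to 605 without albino EOM 3, TA 3 or TA 4). The members called stayed between 6 and 8 in EOM, 6 and 8 in TA, 8 and 9 in the difference, 5 and 7 for CN3 against CN6, and at 10 for EOM against TA and for muscle against brainstem. The causes were not tested. With 2 albino libraries per tissue, differences near the spread cannot be called, and at under 1 CPM in the brainstem Omd and Podn rest on few counts.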
